A study of Homo sapiens with 12 samples.

Results

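The mesenchymal and contractile gene set consists of 39 genes that fibroblasts, pericytes and smooth muscle cells are known to express strongly. It holds the intermediate filament gene *VIM*, 10 genes of calcium- and membrane-associated proteins, 9 of the contractile apparatus, 8 of the extracellular matrix, 6 of secreted modulators and 5 of receptors and transcription factors. The genes were chosen by symbol with earlier results of these same measurements in view, and the values below are therefore a description with no test. Of 18623 gene symbols listed in the iMN or the i3N table, 39 matched a symbol of the set, 39 in the i3N table and 37 in the iMN table. *DCN* and *PRRX1* were not listed in the iMN table, whose lowest listed mean was 7.73 normalized counts. The lowest listed mean in the i3N table was 1.37, so a gene listed there alone can lie under that of iMNs. This was so for *DCN* at 3.89 and *PRRX1* at 5.58. The question was how much RNA of such cells the neuronal cultures held.

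The study profiled 12 RNA-seq libraries, 3 in each of 4 groups. HB9-iMN motor neurons (iMNs) were differentiated from an induced pluripotent stem cell line in which the HB9 promoter drives Td-Tomato, and Td-Tomato-positive cells were isolated by FACS, a gate that bears on cells without HB9 promoter activity. The iNeuron samples (i3Ns), labelled as cortical neurons, came from H1, an established human embryonic stem cell line, through induced NGN2, and no sort is described for them. Each cell type received a lentivirus with a doxycycline-inducible Scramble shRNA (SCR) or SMN shRNA against *SMN1* and *SMN2* (*SMN*-KD), and RNA was harvested after 12 days of knockdown. The controls thus carried the vector and an shRNA as well. Each cell type represents 1 stem cell line and 1 protocol, so that cell type, line and protocol cannot be told apart.

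Genes of this set serve the cytoskeleton and surroundings of cells that pull on tissue. Vimentin supports the cell as a flexible filament, smooth muscle actin, myosin light chain, tropomyosin, calponin and transgelin act in the contraction of actin bundles, and fibronectin, fibrillin and small proteoglycans build the matrix outside. In neuronal cultures such genes are read as a sign of non-neuronal cells, although vimentin, annexin A2 and the broadly expressed tropomyosin and calponin forms are also made by immature neurons and many other cells.

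The level given for each gene was the authors' mean normalized count, which pools the 3 SCR and the 3 *SMN*-KD libraries of a cell type into 1 value. Values for each library and for each shRNA were not analysed here, so no SD, no replicate check and no check of the knockdown accompany the levels, and no difference between *SMN*-KD and SCR is reported. To compare genes with each other, each mean was divided by the length of 1 reference transcript and scaled so that all genes of a table with a known length sum to 1000000, and this is called the length-scaled level. The median gene had a length-scaled level of 20.6 in iMNs and 15.1 in i3Ns. Both tables were normalized separately by the authors, and each was divided by its own sum before a ratio between them was taken. Fewer cells of a type and less RNA per cell cannot be told apart in bulk RNA.

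Most of the set lay below the median gene of each table. In iMNs, 28 of the 37 listed genes lay below the median gene of the table and 18 lay in its lowest 25%. In i3Ns, 23 of 39 lay below the median gene and 9 in the lowest 25%. By definition, 50% and 25% of all genes lie there, so the 9 genes in i3Ns were near the share over all genes. The median length-scaled level of the set was 4.24 in iMNs and 5.82 in i3Ns. By comparison, 12 neuronal genes had a median of 880.9 in iMNs and 717.5 in i3Ns, so the median mesenchymal or contractile gene stood at 0.481% and 0.811% of the median neuronal gene. Medians were lower for 8 motor neuron genes, at 31.5 and 64.2, and for 5 glutamatergic genes, at 19.0 and 63.9. The percentage thus depends on the list chosen and is not a share of cells. A few genes of the set ranked far above the rest. *ANXA2*, *S100A10* and *TPM1* were in the top 10% of genes in iMNs, and the same 3 were joined there by *VIM* and *SPARC* in i3Ns.

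**Figure D1:**
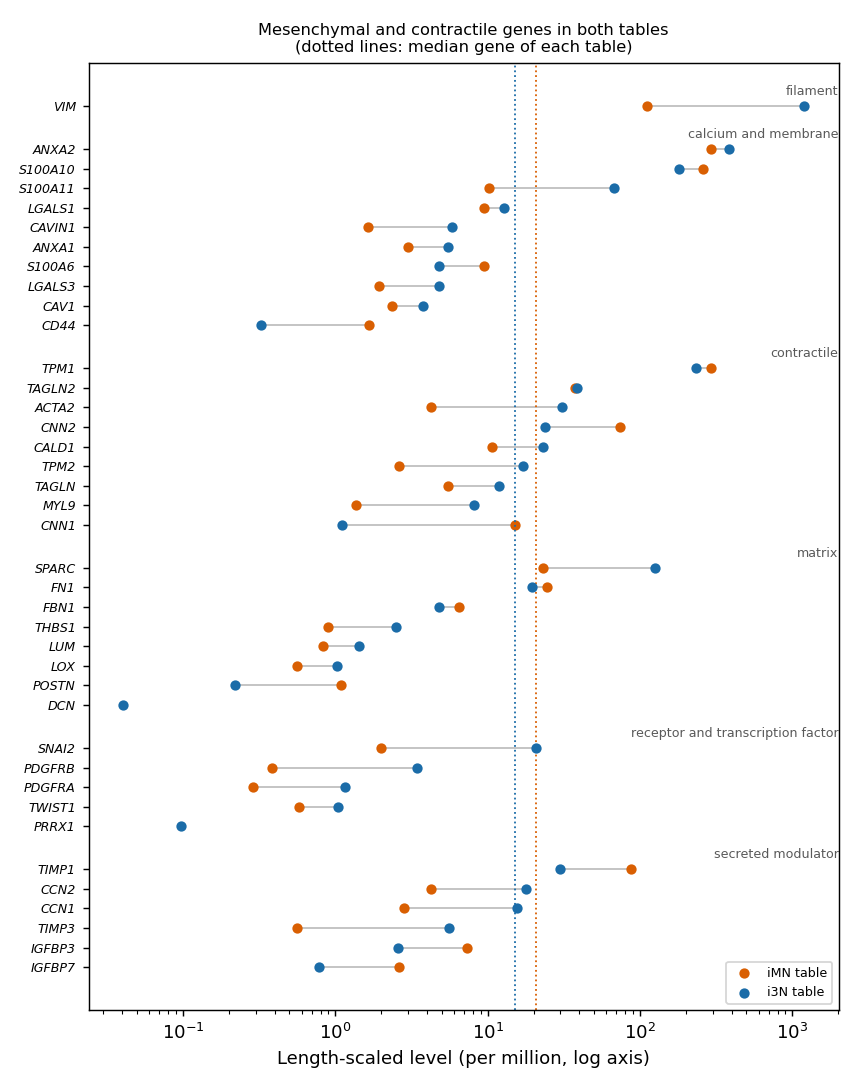
Length-scaled level (per 1000000, log axis) of each of the 39 genes in the iMN table (orange) and the i3N table (blue), each point being 1 pooled mean over 6 libraries, grouped by role, with a dotted line at the median gene of each table (20.6 and 15.1). Most points lie left of the dotted lines, *VIM* is far right in i3Ns at 1200, and *DCN* and *PRRX1* have a blue point only.

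*VIM* (ENSG00000026025, GRCh38 chromosome 10, 17228241 to 17237593, plus strand) encodes vimentin, the intermediate filament of mesenchymal and progenitor cells. Its mean normalized count was 3376 in iMNs and 36571 in i3Ns, and its share of all counts was 10.4 times as high in i3Ns (log2 ratio 3.38). Its length-scaled level of 1200 in i3Ns exceeded 99.6% of genes, against 88.3% for the level of 111 in iMNs. *VIM* alone made up 47.8% of the summed length-scaled level of the set in i3Ns and 8.47% in iMNs. Without it the sums of both tables were close to each other, at 1198 in iMNs and 1309 in i3Ns. These sums came mostly from *ANXA2*, *S100A10* and *TPM1*, at 293, 258 and 291 in iMNs and 382, 180 and 233 in i3Ns. They therefore say little about the weaker genes. Of the 37 genes in both tables, 11 (29.7%), *VIM* included, were at least 4-fold higher in i3Ns, against 3.08% of all symbols. The *VIM* level can be set against other filaments of the same cells. *NEFL*, the neurofilament light chain gene, had a length-scaled level of 2359 in iMNs and 6900 in i3Ns, which put *VIM* at 4.70% and 17.4% of it. *NES*, the nestin gene of neural progenitors, had levels of 76.8 and 377, or 4.72 times as much of all counts in i3Ns. Thus *VIM* and *NES* were both higher in the i3N table. The neural progenitor list as a whole did not share 1 direction. Of its 8 genes, *NES* and *OLIG2* were 4-fold higher in i3Ns and *FABP7* in iMNs (log2 ratio -4.31). *HES1*, *HES5* and *SOX1* had log2 ratios of 1.15, 0.22 and 0.12, and *PAX6* and *SOX2* of -1.26 and -0.53. The part of progenitor-like cells in the *VIM* value was not tested.

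Among the genes of calcium- and membrane-associated proteins, *ANXA2* and *S100A10* stood apart from the other 8 in both tables. Annexin A2 and S100A10 form a complex at the inner face of the plasma membrane. *ANXA2* (chromosome 15, 60347134 to 60402883) had mean normalized counts of 6436 in iMNs and 8409 in i3Ns, with length-scaled levels of 293 and 382. *S100A10* (chromosome 1, 151982915 to 151993859) had means of 2447 and 1713 and length-scaled levels of 258 and 180. Both partners were therefore among the stronger genes of each culture, and their ratios between tables were small, with log2 values of 0.33 for *ANXA2* and -0.57 for *S100A10*. The related *ANXA1* and *S100A6* were far lower. *ANXA1*, which encodes the glucocorticoid-induced annexin A1, had means of 59.8 and 109, and its length-scaled level was 1.03% of that of *ANXA2* in iMNs and 1.43% in i3Ns. *S100A6*, a calcium-binding protein gene often strong in fibroblasts, had means of 58.4 and 29.6 normalized counts.

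*S100A11* was the member of this group with the widest gap upward, with a mean of 81.0 normalized counts in iMNs and 535 in i3Ns (log2 ratio 2.67). In length-scaled terms it was 3.94% of *S100A10* in iMNs and 37.2% in i3Ns. The galectin genes *LGALS1* and *LGALS3*, whose products bind sugar chains on cell surfaces, were weak in both. *LGALS1* had means of 70.5 and 95.4 and *LGALS3* of 26.03 and 65.0 normalized counts. *LGALS1*, usually an abundant transcript in fibroblasts, exceeded 34.7% of genes in iMNs and 47.4% in i3Ns. No fibroblast sample was measured for comparison. Genes of caveolae, the small pits of the plasma membrane, were also low. *CAV1*, which encodes the caveolar coat protein, had means of 82.2 and 130, and *CAVIN1*, which encodes a protein needed to form the pits, of 82.6 and 294. *CD44*, the hyaluronan receptor gene, went the other way, with 127 normalized counts in iMNs and 25.03 in i3Ns (log2 ratio -2.41).

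The contractile genes divided into broadly expressed forms and forms typical of smooth muscle. *TPM1*, a tropomyosin gene with many splice forms, had means of 4999 in iMNs and 4005 in i3Ns, or length-scaled levels of 291 and 233. *TAGLN2*, the broadly expressed transgelin gene, had nearly equal means of 728 and 751 (log2 ratio -0.01). *CNN2*, the broadly expressed calponin gene, had means of 2263 and 723 and was lower in i3Ns (log2 ratio -1.70). These 3 genes were above the median gene in both tables, and none of them was 4-fold apart. *CALD1*, the gene of the actin-binding protein caldesmon, had means of 759 and 1645 (log2 ratio 1.06).

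By mean count, the smooth muscle forms were lower than *TPM1*, *TAGLN2* and *CNN2* in both tables, and most of them differed more between the tables. *ACTA2* (chromosome 10, 88935074 to 88991339, minus strand), the smooth muscle actin gene, had 80.9 normalized counts in iMNs and 583 in i3Ns (log2 ratio 2.79). *MYL9*, the regulatory myosin light chain gene, had 53.6 and 320 (log2 ratio 2.52), and *TPM2*, the muscle-enriched tropomyosin gene, had 44.3 and 287 (log2 ratio 2.64). These 3 genes were thus all more than 4-fold higher in i3Ns. *TAGLN*, the smooth muscle transgelin gene, moved less, with 293 and 634 (log2 ratio 1.06). *CNN1* (chromosome 19, 11538767 to 11550323), the smooth muscle calponin gene, had 318 normalized counts in iMNs and 23.5 in i3Ns, the lowest log2 ratio of the set at -3.82. The genes typical of smooth muscle therefore did not follow 1 direction, since *CNN1* was 14.1 times as high in iMNs while *ACTA2* was 6.94 times as high in i3Ns.

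*ACTA2* also has close relatives that dominate these cells. The cytoplasmic actin gene *ACTB* had a length-scaled level of 6956 in iMNs and 7442 in i3Ns, and *ACTA2* stood at 0.0609% and 0.411% of it. Actin genes share long stretches of coding sequence, and how far the *ACTA2* value depends on the division of shared fragments by Salmon was not tested. Of the other smooth muscle and pericyte genes, *MYH11*, the smooth muscle myosin heavy chain gene, was not listed in the iMN table and had 8.34 normalized counts in i3Ns, and *MCAM* was listed in neither table.

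Related genes can be compared within a table by their length-scaled levels, which removes the scaling between the tables. *TPM2* was 0.906% of *TPM1* in iMNs and 7.32% in i3Ns. *TAGLN* was 14.6% of *TAGLN2* in iMNs and 30.6% in i3Ns, while *CNN1* was 20.2% of *CNN2* in iMNs and 4.65% in i3Ns. In each of these pairs the broadly expressed form was the higher one in both tables. Among the pairs compared, the largest change of balance was in the metalloproteinase inhibitors, where *TIMP3* was 0.638% of *TIMP1* in iMNs and 18.5% in i3Ns. Caveolar partners reversed their order, with *CAV1* at 145% of *CAVIN1* in iMNs and 64.5% in i3Ns. A ratio of lengths is built into every such comparison, and it depends on which transcript of a gene is used.

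**Figure D2:**
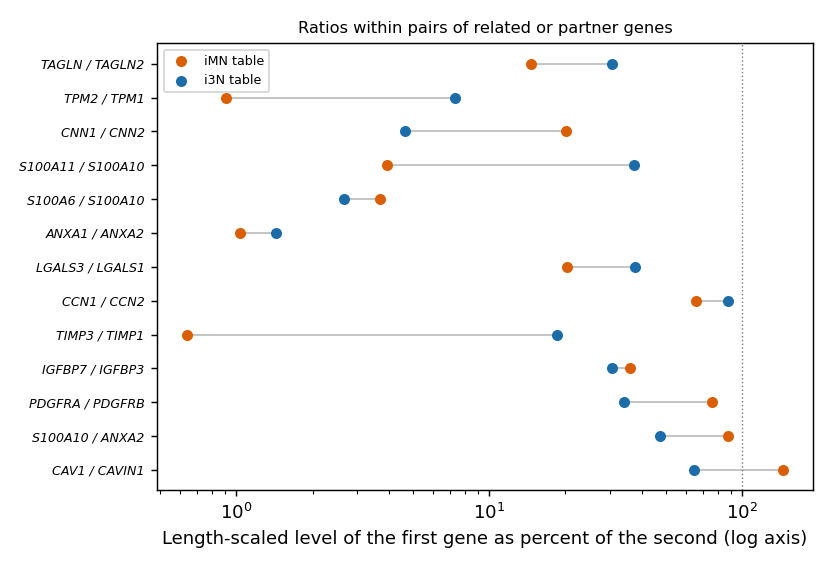
Length-scaled level of the first gene of each pair as a percentage of the second (log axis) in the iMN table (orange) and the i3N table (blue), with a dotted line at 100%. *TPM2* against *TPM1*, *S100A11* against *S100A10* and *TIMP3* against *TIMP1* lie further right in i3Ns, and *CNN1* against *CNN2* lies further left.

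Of the matrix genes, *SPARC*, *FN1* and *FBN1* had the highest mean counts. *SPARC* (chromosome 5, 151661096 to 151686975), which encodes a collagen-binding protein of remodelling matrix, had 1127 normalized counts in iMNs and 6163 in i3Ns (log2 ratio 2.40). *FN1*, the fibronectin gene, had 2903 and 2312, and *FBN1*, the fibrillin-1 gene, had 1067 and 792. Per length, *FN1* came to 24.5 and 19.5, slightly above the median gene of each table, and *FBN1*, with its reference transcript of 11609 bases, to only 6.50 and 4.82. *THBS1*, the thrombospondin-1 gene, had 98.8 and 277 normalized counts. *LOX*, which encodes the enzyme that crosslinks collagen and elastin, had 40.0 and 73.3.

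The proteoglycan genes *LUM* and *DCN* and the periostin gene *POSTN* were among the lower matrix genes. *LUM*, the lumican gene, had 31.3 normalized counts in iMNs and 54.1 in i3Ns, with length-scaled levels of 0.829 and 1.43. *DCN*, the decorin gene and a defining fibroblast transcript, had 3.89 normalized counts in i3Ns, and 0.75% of genes there were lower per length. *POSTN* had 50.7 and 10.2 and was lower in i3Ns (log2 ratio -2.37). These values set *DCN* and *LUM* well below *FN1* and *SPARC* in the same cultures. Of the collagen genes examined outside the set, all but *COL6A3* were higher per length than these proteoglycan genes. *COL1A1*, of fibrillar collagen, had a length-scaled level of 15.8 in iMNs and 50.5 in i3Ns, where it exceeded 75.6% of genes. *COL3A1* had 6.54 and 13.6 and *COL5A1* 5.83 and 15.3, while *COL6A3* had only 0.0851 and 0.0307. The log2 ratios of *COL1A1*, *COL3A1* and *COL5A1* were 1.62, 1.00 and 1.33. Those of *COL1A2*, *COL6A1*, *COL6A2* and *COL6A3* were -0.22, -0.14, -0.78 and -1.53.

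The secreted modulators divided evenly between the tables, 3 with a higher share in i3Ns and 3 in iMNs. *CCN1* and *CCN2* encode matricellular proteins and are known targets of the YAP and TEAD factors. *CCN1* had 90.4 normalized counts in iMNs and 505 in i3Ns (log2 ratio 2.43), and *CCN2* had 141 and 589 (log2 ratio 2.01). Both genes were therefore at least 4-fold higher in i3Ns, *CCN2* only just. *TIMP3*, a matrix-bound metalloproteinase inhibitor gene, had 36.3 and 361 (log2 ratio 3.26), while *TIMP1*, which encodes a soluble inhibitor, had 953 and 326 (log2 ratio -1.60). The binding proteins of insulin-like growth factors were both lower in i3Ns. *IGFBP3* had 269 and 94.99 normalized counts (log2 ratio -1.56) and *IGFBP7* had 53.0 and 15.8 (log2 ratio -1.80).

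Receptors and transcription factors that mark mesenchymal lineages were the weakest group, with a median length-scaled level of 0.481 in iMNs and 1.16 in i3Ns. *PDGFRA*, the receptor gene of fibroblasts and glial progenitors, had 26.2 normalized counts in iMNs and 105 in i3Ns, a log2 ratio of 1.95 that fell just short of 4-fold. *PDGFRB*, the receptor gene of pericytes and smooth muscle, had 30.8 and 276 (log2 ratio 3.11). *SNAI2*, a transcription factor gene of the neural crest and of epithelial-mesenchymal transition, had 61.0 and 640 (log2 ratio 3.33). In i3Ns, *SNAI2* alone of these 5 was above the median gene. *TWIST1*, a transcription factor gene of cranial and limb mesenchyme, had 13.3 and 23.9 normalized counts, and *PRRX1*, a further gene of limb mesenchyme, had 5.58 in i3Ns. All 4 genes of this group that both tables listed had a higher share in i3Ns, as did 8012 of all 15666 symbols.

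Across the 37 genes listed in both tables, 11 were at least 4-fold higher in i3Ns and 3 were at least 4-fold higher in iMNs. The former were *VIM*, *SNAI2*, *TIMP3*, *PDGFRB*, *ACTA2*, *S100A11*, *TPM2*, *MYL9*, *CCN1*, *SPARC* and *CCN2*, and the latter were *CNN1*, *CD44* and *POSTN*. The 11 genes are 29.7% of the 37, against 3.08% of all 15666 symbols listed in both tables. The 3 genes are 8.11% of the 37, against 5.37% of all symbols. These shares have no replicate error and no test, and the genes were chosen with results known. The median log2 ratio of the set was 0.80, against 0.02 for all symbols. Of the 37 ratios, 24 were above 0, against 8012 of all 15666. A ratio within 2-fold was found for 12 of the 37 (32.4%) and for 76.3% of all symbols. An average share under 20 per 1000000 was found for 28 of the 37 genes and for 7430 of the 15666 symbols. Among the 28 genes of the set with an average share under 20 per 1000000, 9 were 4-fold higher in i3Ns (32.1%), against 4.76% of the 7430 symbols below the same limit, a limit chosen after the data had been seen. The order of the 37 genes by length-scaled level had a Spearman's rho of 0.75 between the tables, and that of 15474 genes a rho of 0.92. These are descriptions across genes, which are not independent replicates.

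**Figure D3:**
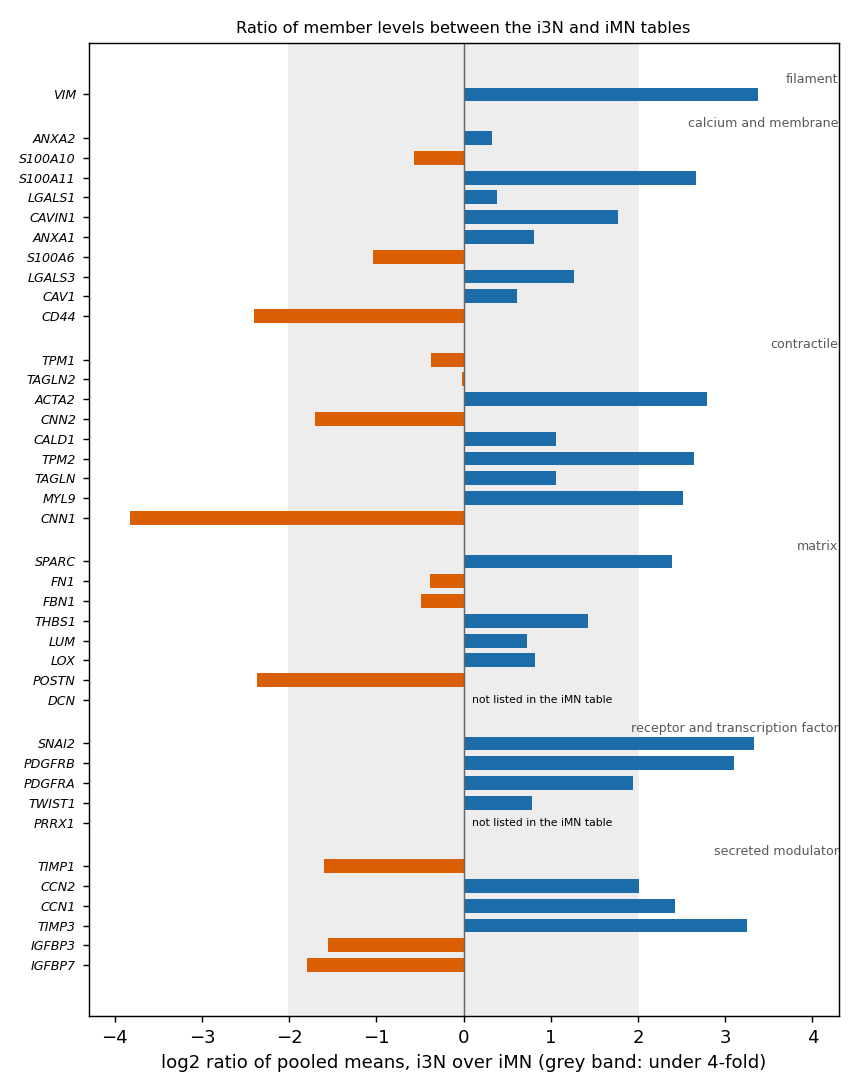
log2 ratio of pooled means, i3N over iMN, for each gene, with blue bars for a higher share in i3Ns, orange bars for a higher share in iMNs and a grey band for differences under 4-fold. 11 blue bars and 3 orange bars leave the band, the longest being *VIM* at 3.38 and *CNN1* at -3.82.

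Promoters of the YAP and TEAD target *CCN2* and of the calponin gene *CNN2* are shown because they hold matches to the motifs searched. RefSeq promoter sequences (GRCh38.p14, 250 bases before to 50 after the start) matched 29 of the 39 symbols. The TEAD motif, GGAATG or its reverse complement CATTCC, was found in 5 of these 29 promoters (17.2%), against 14.05% of all 27305 promoters. For the 12530 promoters of genes listed in either table the share was 11.08%. *CCN2* held it 3 times, and 1 match each was found in *CALD1*, *FBN1*, *SPARC* and *THBS1*. The windows of *CCN2* are on the minus strand of chromosome 6 from 131951452 to 131951551, with the motif in capitals and the first base of the motif 169, 104 and 95 bases before the start. The latter windows overlap each other.
CCN2, 169 bases before the start: ttcagacggaGGAATGctgagtgtca
CCN2, 104 bases before the start: aaggtggggaGGAATGcgaggaatgt
CCN2, 95 bases before the start: aggaatgcgaGGAATGtccctgtttg

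The CArG box, the site of serum response factor with 6 bases of A or T between CC and GG, is palindromic in form and was read on both strands at once. It was found in 1 of the 29 promoters (3.45%), that of *CNN2*, against 1.29% of all promoters and 1.13% of those of genes listed in either table. Of the 9 contractile genes, 7 had a promoter sequence to search. The match, on chromosome 19 (plus strand), lies in a window of bases 1026509 to 1026538 and begins 89 bases before the start.
CNN2, 89 bases before the start: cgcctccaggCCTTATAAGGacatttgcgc
A match is a run of letters, and nothing about binding in these cells was measured. *CCN2* was 4.02 times as high in i3Ns and *CNN2* was 3.25 times as high in iMNs, so the genes shown here lay on opposite sides.

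Marker lists of other cell types place the set in context. All 12 neuronal genes were listed in both tables, from *RBFOX3* at a length-scaled level of 42.2 to *STMN2* at 3013 in iMNs, and from *RBFOX3* at 30.2 to *NEFL* at 6900 in i3Ns. For the labelled cell types the picture was mixed. All 8 motor neuron genes were listed in both, from *LHX3* at 0.447 to *PRPH* at 286 in iMNs and from *LHX3* at 6.81 to *ISL1* at 422 in i3Ns. The motor neuron transcription factor genes *MNX1* (HB9), *ISL1*, *ISL2* and *LHX3* were all at least 4-fold higher in i3Ns, although the labels name the iMNs as the motor neurons, while the cholinergic genes *CHAT*, *SLC18A3* and *SLC5A7* had log2 ratios of -0.07, -0.80 and -1.83. The 5 glutamatergic genes were also divided. *SLC17A7* had 1.202 in iMNs, the lowest there, and 156 in i3Ns, and *SLC17A6* had 11.4 and 217, the highest in i3Ns. In the other direction, *SLC17A8* had 19.0 in iMNs and 0.131 in i3Ns, the lowest there, and *GRIN1* had 58.1 and 11.6. *GRIA2*, the highest in iMNs, had 62.5 and 63.9. The tables are called iMN and i3N here as labelled.

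Fibroblast genes were listed for 9 of 12 in iMNs and 11 of 12 in i3Ns, with medians of 9.57 and 13.6. *COL6A1* was highest at 312 and 293 and *COL6A3* lowest at 0.0851 and 0.0307, so that chains of the same collagen were at opposite ends. *FAP*, which marks activated fibroblasts, was listed in neither table, and *S100A4* and *MEOX2* were not listed in iMNs. In i3Ns *MEOX2* had 743 normalized counts, and *S100A4* had 5.23, under the lowest listed mean of iMNs. None of the 9 genes listed in both was 4-fold apart. Smooth muscle and pericyte genes had medians of 1.67 and 1.81, from *CSPG4* at 0.113 to *SMTN* at 12.6 in iMNs and from *MYH11* at 0.0856 to *SMTN* at 14.7 in i3Ns. *MCAM* was listed in neither table, and *MYH11* and *LMOD1* were not listed in iMNs. Of the 9 genes in both, *CSPG4*, the NG2 proteoglycan gene, was 4-fold higher in i3Ns and *ACTG2*, the enteric smooth muscle actin gene, in iMNs. Summed over each list, length-scaled levels were 431 in iMNs and 469 in i3Ns for fibroblast genes and 23.7 and 37.0 for smooth muscle and pericyte genes, against 13704 and 23338 for neuronal genes.

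Endothelial genes were listed for 3 of 7 in iMNs and 6 of 7 in i3Ns, and none exceeded 0.679, the level of *TEK* in i3Ns, with *CLDN5* highest in iMNs at 0.519, *VWF* lowest there at 0.0734 and *PECAM1* lowest in i3Ns at 0.0171. *CDH5* was listed in neither table, and *PECAM1*, *KDR* and *ERG* were not listed in iMNs. Of 7 astrocyte genes, 4 were listed in each table and *GFAP* and *AQP4* in neither. The highest was *SLC1A2* at 58.7 and 42.3, a glutamate transporter gene that neurons can also express, and the lowest were *SLC1A3* at 0.833 in iMNs and *ALDH1L1* at 0.0840 in i3Ns. *ALDH1L1* was not listed in iMNs and *S100B* not in i3Ns. In i3Ns *ALDH1L1* had 3.64 normalized counts, under the lowest listed mean of iMNs, and *S100B* had 29.8 in iMNs. Microglial genes were not listed in iMNs at all (0 of 6). In i3Ns, 3 of 6 were listed, from *ITGAM* at 0.0520 to *CX3CR1* at 0.135, while *AIF1*, *CSF1R* and *TYROBP* were not. The 3 listed genes had 3.47 to 6.05 normalized counts, under the lowest listed mean of 7.73 in iMNs, so the tables cannot be compared for them.

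All 8 neural progenitor genes were listed, with *NES* highest in both tables, *OLIG2* lowest in iMNs at 0.590 and *SOX1* lowest in i3Ns at 0.703. The progenitor gene *SOX2* had length-scaled levels of only 1.52 and 1.09, in contrast to *NES* and *VIM*. Proliferation genes were listed for 5 of 6 in iMNs, without *CDK1*, from *MKI67* at 0.157 to *PCNA* at 34.7. In i3Ns all 6 were listed, from *BUB1* at 2.22 to *PCNA* at 67.3. *MKI67*, *TOP2A* and *BUB1* were 4-fold higher in i3Ns. So were 11 of the 37 mesenchymal and contractile genes in both tables (29.7%), against 3.08% of all symbols. The part of dividing cells in the values of the set was not tested.

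**Figure D4:**
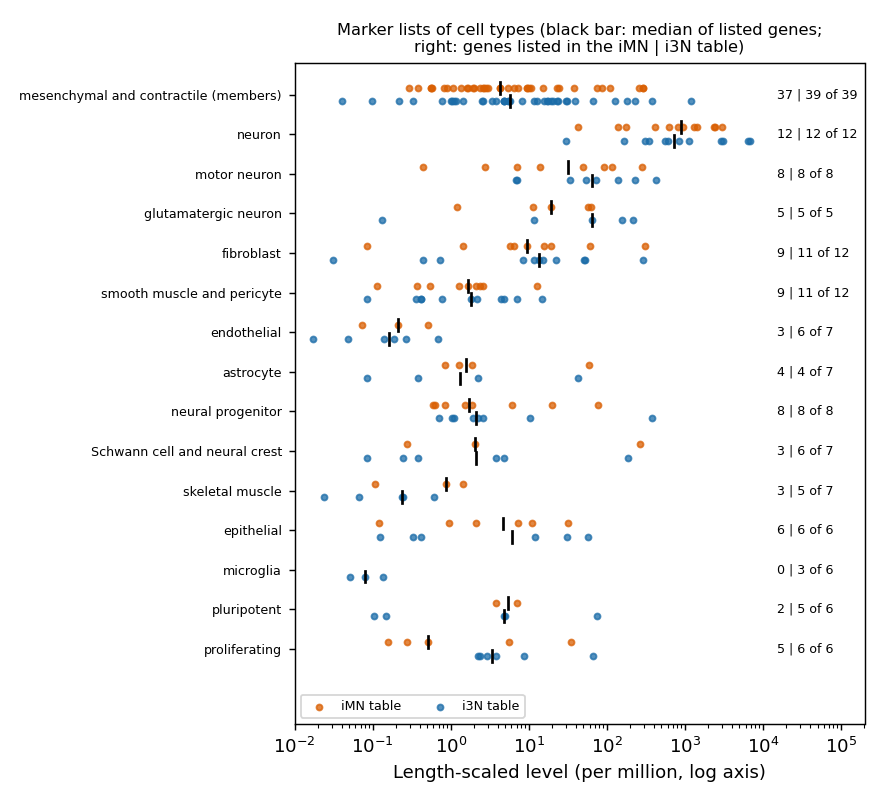
Length-scaled level (per 1000000, log axis) of each listed gene in 15 lists, with 1 point per gene and table (orange iMN, blue i3N), a black bar at the median, and at the right the number of genes listed in each table. Mesenchymal and contractile genes have medians of 4.24 and 5.82, neuronal genes of 880.9 and 717.5, and the endothelial and microglial points all lie under 1.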

How the data were processed

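RNA was sequenced from 12 libraries of total RNA depleted of ribosomal RNA, 3 for each cell type and shRNA. The authors used fastp for trimming, Salmon for transcript quantification and DESeq2 for the comparison of groups, and hg38 is the build in their processing notes. Versions, transcript annotation and the filter on low counts are not given in the sources used here. From each deposited table only the mean normalized count was used, a signal (counts divided by size factors) that the authors averaged over 6 libraries. The tables also hold the authors' fold changes of *SMN*-KD over SCR, their standard errors and p-values. These are the study's own findings and were not used. Because no counts per library were used, the depth per library is unknown here, and no interval, test or replicate check could be computed. The means summed to 4.33e+07 over 16406 rows in iMNs and 4.50e+07 over 19016 rows in i3Ns.

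Rows were summed by symbol, divided by the sum of the table, and the log2 ratio of i3N over iMN was taken without a pseudocount for 15666 symbols listed in both tables. Genes at least 4-fold apart were counted. Reference transcripts (MANE Select or Ensembl canonical) and coordinates came from GENCODE release 44 on GRCh38, and 693 rows in iMNs and 878 in i3Ns were outside it. The members and lists were chosen with earlier results of these data known. All 39 members are named, and of the other lists the highest gene, the lowest gene and those not listed, while further genes were named after their values were seen. Genes of the Schwann cell and neural crest list that were not listed in iMNs alone are not reported here by name. Scaling, filter, pseudocount, threshold, identifier matching and length were varied. Ratios were checked on simulated tables. Python 3.11.15, pandas 2.3.3, numpy 2.4.6 and scipy 1.17.1 were used.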

Additional observations from a re-analysis of the deposited data

How the results depend on the processing

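The number of genes at least 4-fold higher in i3Ns was 10 with median-of-ratios scaling and 10 with a pseudocount of 1, and 11 when scaled to protein-coding nuclear genes, with a mean of at least 10, or with 1 row per symbol, against 3.01% to 3.08% of all symbols. The number higher in iMNs was 3 under each of these, against 3.77% to 5.50%. Under a minimum of 100 normalized counts per table, a filter that removes genes low in either table, 13 genes of the set were left, of which 3 were 4-fold higher in i3Ns (23.1%, against 1.40% of 11892 symbols) and 0 in iMNs (against 1.99%). At a threshold of 2-fold, 17 were higher in i3Ns and 8 in iMNs, against 9.82% and 13.9% of all symbols. Another scaling, a pseudocount or 1 row per symbol moved the log2 ratio of a single gene by at most 0.106. The direction of a gene 4-fold apart could therefore not reverse under these settings. Without division by length, the median gene of the set in iMNs stood at 0.232% of the median neuronal gene rather than 0.481%, and the number of genes below the median gene in i3Ns was 28 rather than 23. No paired analysis was possible because the values are means over all 6 libraries of a table, and for the same reason no replicate could be left out. Genes with few counts, such as *DCN* and *PRRX1*, carry the least certain values, and the depth behind each value is unknown.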

Other observations

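Further lists, of genes that act upstream of or beside the contractile set, were chosen with earlier results known. Their counts of genes 4-fold apart stand beside 3.08% (higher in i3Ns) and 5.37% (higher in iMNs) of all symbols, and with so few genes nothing is read from them. Of 14 genes of serum response factor, its MRTF cofactors and their targets, all were listed in both tables, with medians of 41.8 in iMNs and 43.9 in i3Ns. *ACTB* was highest at 6956 and 7442, and the lowest were *FHL2* at 5.45 in iMNs and *MYLK*, the myosin light chain kinase gene, at 1.43 in i3Ns. *MYLK* was also the only one of the 14 that was 4-fold apart, with a log2 ratio of -2.26. *SRF* itself had 2190 normalized counts in iMNs and 1995 in i3Ns.

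All 9 genes of the YAP and TEAD list were listed in both tables, with medians of 1.41 and 3.84, from *AJUBA* at 0.378 to *AMOTL2* at 89.8 in iMNs and from *ANKRD1* at 1.06 to *AMOTL2* at 93.2 in i3Ns. Only *AJUBA* was 4-fold higher in i3Ns (log2 ratio 2.42). *ANKRD1*, often read beside *CCN1* and *CCN2*, had 31.4 and 26.9 normalized counts, where *CCN1* and *CCN2* had log2 ratios of 2.43 and 2.01. Of 8 further genes of epithelial-mesenchymal transition, *TWIST2* was not listed in iMNs and had the lowest level in i3Ns at 0.142, *SNAI1* was lowest in iMNs at 1.57, and *CDH2*, the N-cadherin gene that neurons express strongly, was highest at 491 and 449.8. None of the 7 listed in both was 4-fold apart, whereas *SNAI2* of the same gene family as *SNAI1* had a log2 ratio of 3.33.

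Lists of lineages that a stem cell culture could also hold were mixed. All 6 epithelial genes were listed, from *CDH1* at 0.121 and 0.125 to *KRT8* at 32.1 and 57.8. Of 6 pluripotency genes, 2 were listed in iMNs, *LIN28A* at 3.82 and *DNMT3B* at 7.14, without *NANOG*, *DPPA4*, *TDGF1* and *L1TD1*. In i3Ns 5 were listed, without *TDGF1*, from *NANOG* at 0.105 to *LIN28A* at 74.96. Schwann cell and neural crest genes ran from *ERBB3* at 0.272 to *NGFR* at 269 in iMNs and from *FOXD3* at 0.0835 to *NGFR* at 187 in i3Ns, with *SOX10* in neither table. Of 7 skeletal muscle genes, 3 were listed in iMNs, from *TTN* at 0.106 to *ACTA1* at 1.43, and 5 in i3Ns, from *PAX7* at 0.0238 to *MYH3* at 0.604. *MYOG* and *MYF5* were in neither table, and *MYOD1* and *PAX7* were not in iMNs. *MYOD1* and *PAX7* had 1.71 and 2.09 normalized counts in i3Ns, under the lowest listed mean of iMNs. *MEOX2*, a mesodermal transcription factor gene not listed in iMNs, had 743 normalized counts in i3Ns. The cell of origin of these transcripts was not tested.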
